A study of Mus musculus with 10 samples.

Results

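The genes described here encode subunits of the transcription factor NF-kB (Nfkb1, Nfkb2, Rela and Relb), proteins that bind and inhibit or modify it (Nfkbia, Nfkbie, Nfkbiz and Bcl3), the feedback enzyme Tnfaip3 and the adhesion molecule Icam1. These 10 genes were chosen by name. The list was drawn up with the KCl results of these same cultures known, so the KCl values of its genes are given as a description. Of the 10 genes, 8 had a transcript in the count tables, and all transcripts annotated to them were taken, 13 of 22534 transcripts in all. No listed transcript was matched to Relb or Tnfaip3, so their reads were not analysed here, and Tnfaip3 enters only in the promoter search.

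NF-kB is a family of dimeric transcription factors held in the cytoplasm by IkB proteins. Ligands such as tumor necrosis factor activate the IkB kinase complex, which marks IkB for degradation and lets the dimers enter the nucleus. Many of the genes that NF-kB switches on encode its own inhibitors, among them Nfkbia, Nfkbie and Tnfaip3, so that the pathway limits itself. In brain tissue the pathway is best known from the inflammatory responses of microglia, astrocytes and endothelial cells, and it is also found in neurons.

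Cells of cortices from P0 FVB mouse pups of both sexes, with no transgene or mutation named, were grown as mixed neuron-glia cultures for 7 days in medium with horse serum. In 2 cultures, numbered 4 and 5, KCl was then added to 55 mM for 3 h, which depolarizes neurons, whereas 3 cultures, numbered 1 to 3, were untreated. All 5 received cycloheximide, which stalls ribosomes, for 7 min before lysis. From each lysate came an RNAseq library, which measures transcript abundance, and a ribosome footprinting (RF) library of the 26 to 34 nt fragments that ribosomes protect. The methods name a further KCl replicate that was removed for its small library. The labels do not say whether cultures came from different litters, so p-values measure the spread between these cultures.

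RNAseq libraries held 3056286 to 3629959 counted reads. RF libraries were less even, with 1463654 to 7719915 reads, and untreated culture 3 and KCl culture 4 were the shallowest. After normalization by the trimmed mean of M-values (TMM), 8 NF-kB genes were compared in normalized CPM, reads scaled by library size, each by its transcript with the most RNAseq reads. RNAseq values used reads on all regions of a transcript, RF values the footprints on the coding sequence (CDS). Translation efficiency (TE) was the ratio of RF to RNAseq. All 13 transcripts had the 10 reads per assay required for testing, and 3 of them, those of Rela, Nfkbia and Icam1, also passed a filter of 10 RPKM (reads scaled by length and library size) in both assays.

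NF-kB dimers bind a short DNA motif that many of their target promoters carry. In RefSeq promoters of the GRCm38.p6 build, each 300 bases long, the NF-kB consensus motif was searched by name on both strands. It lay in 8.459% of all 32851 promoters. Counted by gene, in any of its promoters, it lay in 9.55% of 27025 genes and in 5 of the 7 NF-kB genes with an entry: Nfkb2, Nfkbia, Nfkbie, Bcl3 and Tnfaip3. Nfkb1, Relb and Nfkbiz had no entry. A looser form of the motif lay in all 7, Rela and Icam1 included, beside 53.52% of genes. For the 4 genes with counts and a consensus match, a match is shown to give the letters behind the consensus count. It is on the strand of the gene with the motif in capitals.
Nfkbia: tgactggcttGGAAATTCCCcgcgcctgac
Nfkbie: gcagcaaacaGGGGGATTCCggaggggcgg
Nfkb2: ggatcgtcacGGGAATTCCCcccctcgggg
Bcl3: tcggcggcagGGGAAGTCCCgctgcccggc

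The Nfkbia window was chr12:55492657-55492686 on the minus strand and its motif, read on the opposite strand, began at -29, counted from 0 at the annotated start. The Nfkbie window was chr17:45555584-45555613 on the plus strand, with the motif at -106. The Nfkb2 window, 1 of several, was chr19:46304688-46304717 on the plus strand, with the motif at -39, and the Bcl3 window was chr7:19822734-19822763 on the minus strand, with the motif at 2. The cAMP response element TGACGTCA was in none of the 7, in 1.79% of promoters and in 2.031% of genes. The AP-1 motif TGANTCA was in those of Nfkb2, Nfkbie and Tnfaip3, in 7.808% of promoters and in 8.973% of genes. A match says only that these letters are in the window.

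Before any treatment, the NF-kB genes spanned a wide range of transcript levels. Levels between genes were compared per length, in RPKM. Nfkbia, which encodes the main IkB protein, had 33.8 ± 3.75 RNAseq RPKM (SD, n = 3 untreated cultures). Icam1 had 29.1 ± 9.24, Rela 22.5 ± 5.94 and Bcl3 16.2 ± 4.69 RNAseq RPKM. These 4 genes were above the median of 7.12 over 11190 genes in every untreated culture, and each overlapped its neighbor in this order. A second group followed, with Nfkbie at 8.22 ± 1.69, Nfkb1 at 7.78 ± 1.59, Nfkbiz at 5.64 ± 0.688 and Nfkb2 at 4.30 ± 1.07 RNAseq RPKM. The ranges of Bcl3 and Nfkbie did not overlap, nor did those of Nfkb1 and Nfkbiz.

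On ribosomes the order changed, mainly for Bcl3. Nfkbia carried 224 ± 16.7 RF RPKM, at the 97.0th percentile of 10690 genes, followed by Icam1 with 65.7 ± 8.42 and Rela with 31.8 ± 1.07. Nfkb1 had 22.8 ± 4.89, Nfkb2 13.4 ± 1.51, Nfkbiz 11.1 ± 1.09, Nfkbie 7.06 ± 1.33 and Bcl3 5.54 ± 0.0506 RF RPKM. Only Nfkbia, Icam1 and Rela had more RNAseq RPKM than Bcl3, yet Bcl3 was last by RF. An opposite-strand gene, Gm16175, overlaps Bcl3, and strand was not stated to be used in counting. The RNAseq level and TE of Bcl3 may therefore include reads of that gene. Nfkb2 and Nfkbiz overlapped, and no other neighbors in the RF order did.

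**Figure D1:**
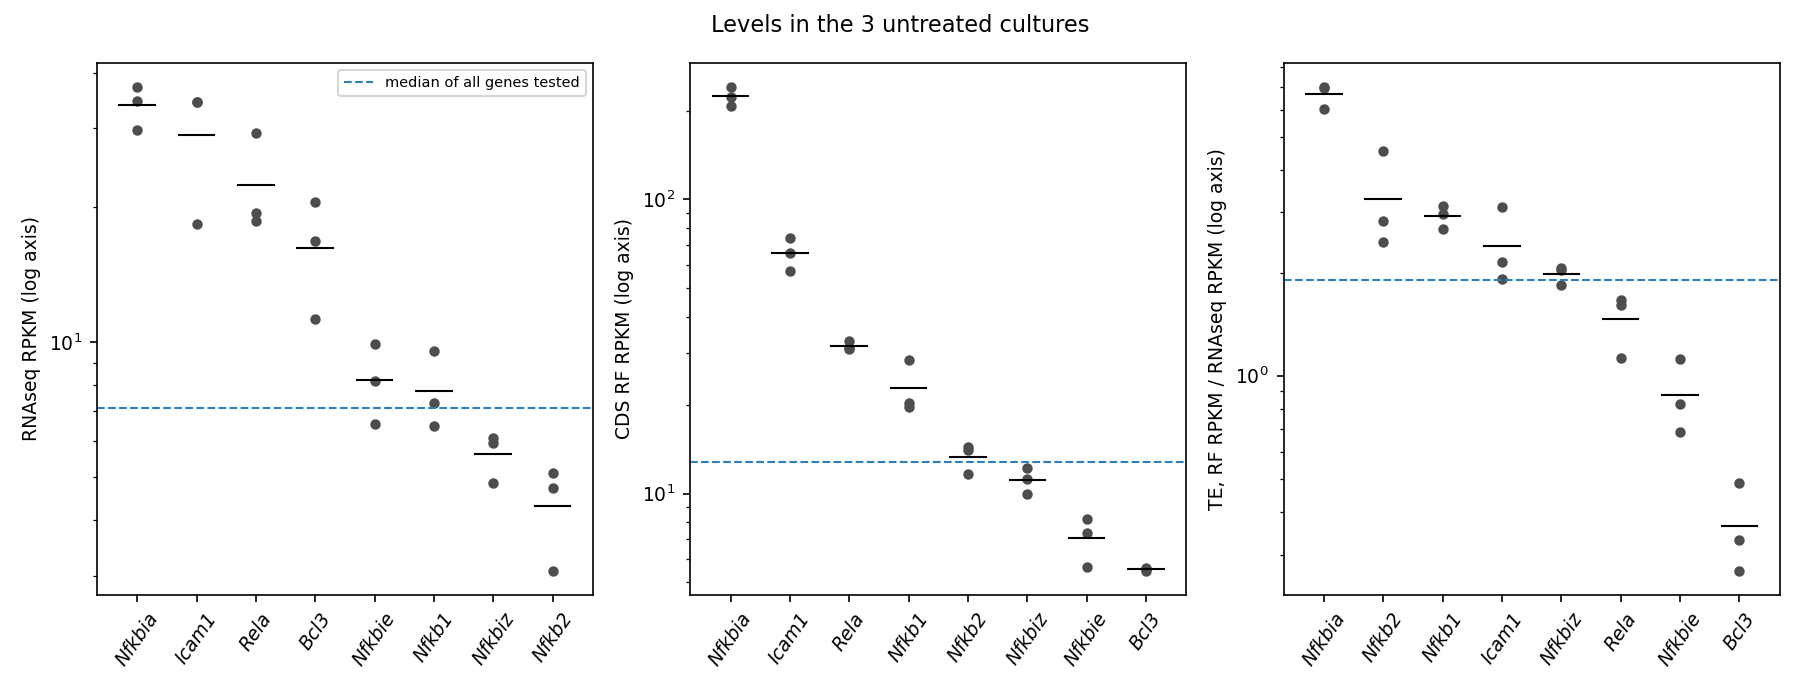
Levels of the NF-kB genes in the 3 untreated cultures. Each panel orders the genes by their mean (RNAseq RPKM, CDS RF RPKM, or the TE of RF over RNAseq RPKM, all on log axes). Points are cultures, bars are means and the dashed line is the median of all genes tested. RNAseq RPKM, and so TE, used RNAseq reads on all regions. Nfkbia leads all 3 panels, and Bcl3 lies above the median by RNAseq and last by RF and TE.

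Per length, TE was highest for Nfkbia, at 6.65 ± 0.545 RF RPKM per RNAseq RPKM, the 94.0th percentile of 10418 genes. With RNAseq reads on all regions, the 3 untreated values of Nfkbia, 6.97, 6.02 and 6.95, were above those of all other NF-kB genes. This order can depend on the regions counted. Untreated 3′UTR shares of RNAseq reads were 74.8% to 82.3% for Icam1 and 79.5% to 86.5% for Nfkbie. Untreated RNAseq reads on the CDS were 21, 54 and 30 for Icam1, over 1614 nt, and 56, 78 and 65 for Nfkbia, over 945 nt. An order by CDS reads alone was not computed and can differ. Bcl3 was at the other end with 0.486, 0.270 and 0.332, a mean of 0.363 ± 0.112, at the 3.00th percentile. The median gene had a TE of 1.90. Nfkb2 at 3.28 ± 1.11, Nfkb1 at 2.93 ± 0.220, Icam1 at 2.39 ± 0.638 and Nfkbiz at 1.98 ± 0.123 overlapped in sequence, whereas Rela at 1.47 ± 0.296, Nfkbie at 0.878 ± 0.221 and Bcl3 were each apart from the gene above. The means of Nfkbia and Bcl3 were thus 33.8 and 16.2 RNAseq RPKM, but 224 and 5.54 RF RPKM.

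KCl was next compared with untreated cultures, to ask which of these genes changed as transcripts, on ribosomes, or in the ratio of both. In RNAseq, 5 of the 8 genes passed an adjusted p of 0.05 in edgeR's quasi-likelihood test, 2 higher and 3 lower with KCl. Of all 11190 genes tested, each by 1 transcript, 22.8% passed, 12.3% higher and 10.5% lower. In RF, 6 of the 8 genes passed, 2 higher and 4 lower, beside 29.4% of all 10690 genes, 15.6% higher and 13.8% lower. In TE, 0 of the 8 genes passed with edgeR and 0 of the 5 to which DESeq2 gave an adjusted p (not Nfkb2, Nfkbie and Bcl3), with 2.45% over all 10418 genes in edgeR, and 1 gene, Nfkbiz, had an unadjusted p under 0.05. The median log2 fold change of the 8 genes was -0.30 in RNAseq, -0.42 in RF and -0.10 in TE, beside -0.02, -0.02 and 0.01 over all transcripts tested. Since the list was drawn up with this contrast known, nothing is read from these counts.

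The KCl cultures lay wholly beyond the untreated ones in RNAseq for 6 of the 8 genes, as for 47.9% of all genes. In RF this held for 6 of 8, as for 52.1% of all genes, and in TE for 4 of 8, as for 31.0%. The genes that overlapped in both RNAseq and RF were Nfkb1 and Nfkb2.

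**Figure D2:**
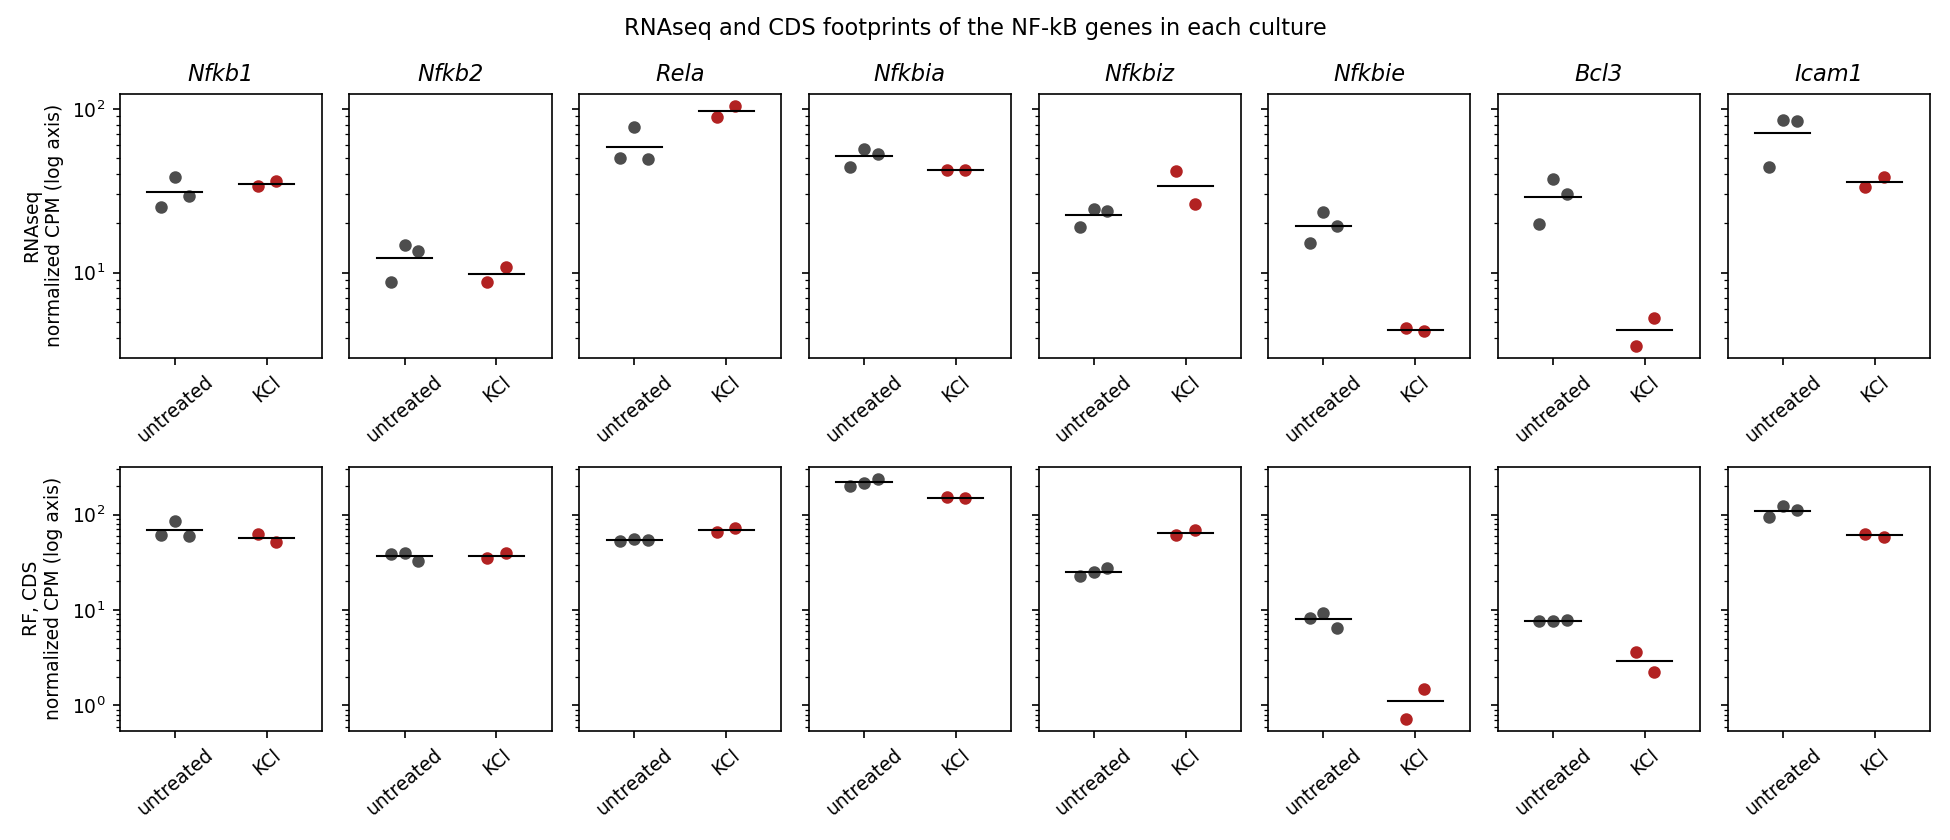
Normalized CPM of each NF-kB gene in each culture, RNAseq above and CDS footprints (RF) below, on log axes. Gray points are the 3 untreated cultures, red points the 2 KCl cultures and bars the group means. Bcl3 and Nfkbie lie lower in both KCl cultures in both rows, Nfkbiz and Rela lie higher, and the groups overlap for Nfkb1 and Nfkb2.

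Of the subunits, Rela, which encodes the p65 protein that carries the transactivation domain of the most common dimer, rose as a transcript. Its RNAseq values were 49.9, 77.4 and 49.1 normalized CPM untreated and 89.6 and 105 with KCl. Both KCl cultures were above the highest untreated culture. This was a log2 fold change of 0.73 with an approximate standard error (SE) of 0.17 and an adjusted p of 3.86e-04 in edgeR. It passed under all 12 alternatives run, between 0.59 and 0.97.

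Rela footprints were 53.1, 55.9 and 53.6 normalized CPM in untreated cultures and 66.5 and 72.8 in KCl cultures. The 3 untreated values lay close together and the KCl values lay above them. Here the log2 fold change was 0.37 (SE 0.15), with an adjusted p of 0.0478 in edgeR, just under the threshold, and it was lost in 9 of 11 alternatives, DESeq2 (adjusted p = 0.141) and leaving out any 1 culture other than untreated 2 among them. Rela TE was 1.06, 0.723 and 1.09 untreated and 0.742 and 0.696 with KCl, as a ratio of normalized CPM, and the groups overlapped. The log2 difference in TE was -0.37 (SE 0.24) with an adjusted p of 0.534 in edgeR.

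Nfkb1 encodes p105, the precursor of the p50 subunit, and gave no call in RNAseq, RF or TE. As RNA it had 25.2, 38.2 and 29.1 normalized CPM in untreated cultures and 33.6 and 36.4 with KCl, a log2 fold change of 0.18 (SE 0.21, adjusted p = 0.603 in edgeR). Its footprints were 60.7, 85.0 and 59.99 untreated and 62.9 and 51.4 with KCl, a log2 fold change of -0.32 (SE 0.16, adjusted p = 0.124 in edgeR). Untreated culture 2 was the highest in both assays. With library totals in place of TMM, which put the median log2 fold change of all transcripts in RF at -0.20, Nfkb1 passed at -0.49 (adjusted p = 0.0113 in edgeR). Nfkb1 TE was 2.41, 2.22 and 2.06 untreated and 1.87 and 1.41 with KCl. The KCl values were both lower, but the log2 difference of -0.48 (SE 0.27) did not pass (adjusted p = 0.454 in edgeR). The second Nfkb1 transcript has the same CDS counts in every library and cannot be separated in RF. Its RNAseq reads on all regions were fewer, with a log2 fold change of -0.0039 (SE 0.26). On these reads its TE was 3.67, 3.44 and 3.32 untreated and 3.51 and 2.40 with KCl, and the groups overlapped.

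Nfkb2, which encodes the p100 precursor of p52 in the alternative branch of the pathway, was the member with the smallest difference in RF. Its footprints were 39.0, 39.9 and 32.9 normalized CPM untreated and 34.7 and 39.8 with KCl, a log2 fold change of -0.02 (SE 0.18, adjusted p = 0.953 in edgeR). Its RNAseq values, 8.71, 14.8 and 13.6 untreated and 8.80 and 10.8 with KCl, rested on 27 to 49 reads per library and overlapped. The log2 fold change in RNAseq was -0.32 (SE 0.32, adjusted p = 0.530 in edgeR) and in TE 0.28 (SE 0.36, adjusted p = 0.819). An opposite-strand gene, AC114539.1, overlaps Nfkb2, and since strand was not stated to be used in counting, reads of both could not be told apart.

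Among the inhibitors, Nfkbia had fewer footprints after KCl. It encodes IkBa, the classic feedback inhibitor that NF-kB itself induces. Its RF values were 201, 217 and 238 normalized CPM untreated and 153 and 148 with KCl. The groups were apart, and the untreated mean was 1.45-fold the KCl mean. In log2 terms it fell by 0.53 (SE 0.11, adjusted p = 4.70e-05 in edgeR), and it passed under all 11 alternatives run, from -0.70 to -0.47.

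As a transcript Nfkbia gave no call. In RNAseq the untreated cultures had 44.4, 56.9 and 52.9 normalized CPM and the KCl cultures 42.4 and 42.2, below all 3. Its log2 fold change of -0.28 (SE 0.19) had an adjusted p of 0.310 in edgeR. Its reads on the CDS were 56, 78 and 65 untreated and 33 and 48 with KCl, whereas those on the 3′UTR were 97, 105 and 97 untreated and 95 and 91 with KCl. TE on all RNAseq reads was 4.54, 3.81 and 4.50 untreated and 3.62 and 3.51 with KCl, a log2 difference of -0.26 (SE 0.22, adjusted p = 0.681 in edgeR). That sign depended on the regions counted, since against CDS reads alone the TE difference was 0.12. Nfkbia thus passed in RF and not in RNAseq, but its RNAseq and RF changes were not shown to differ.

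Nfkbie, which encodes the inhibitor IkBe, was among the most reduced of these genes in both assays. Its RNAseq values were 15.1, 23.5 and 19.3 normalized CPM untreated and 4.56 and 4.40 with KCl. Every KCl value lay below every untreated value, and the untreated mean was 4.31-fold the KCl mean. It fell by 2.10 on the log2 scale (SE 0.34, adjusted p = 3.86e-07 in edgeR). Most of these reads fell on the 3′UTR, 71.4% to 86.5% per library. On CDS reads alone, which numbered 6, 10 and 4 untreated and 2 and 2 with KCl, the log2 fold change was -1.61 and did not pass (adjusted p = 0.312).

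Nfkbie footprints on the CDS were 8.26, 9.24 and 6.43 normalized CPM untreated and 0.723 and 1.502 with KCl. The counts behind them were 62, 59 and 9 footprints untreated and 1 and 4 with KCl. Taken over the libraries, the KCl to untreated ratio was 0.145, with an exact 95% interval of 0.0464 to 0.348 that covers counting error only. In edgeR it fell by 2.74 on the log2 scale (SE 0.54, adjusted p = 2.21e-05), a size that rests on these few footprints. The TE values of 0.547, 0.393 and 0.333 untreated and 0.158 and 0.341 with KCl overlapped, with a log2 difference of -0.65 (SE 0.76, adjusted p = 0.801 in edgeR).

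**Figure D3:**
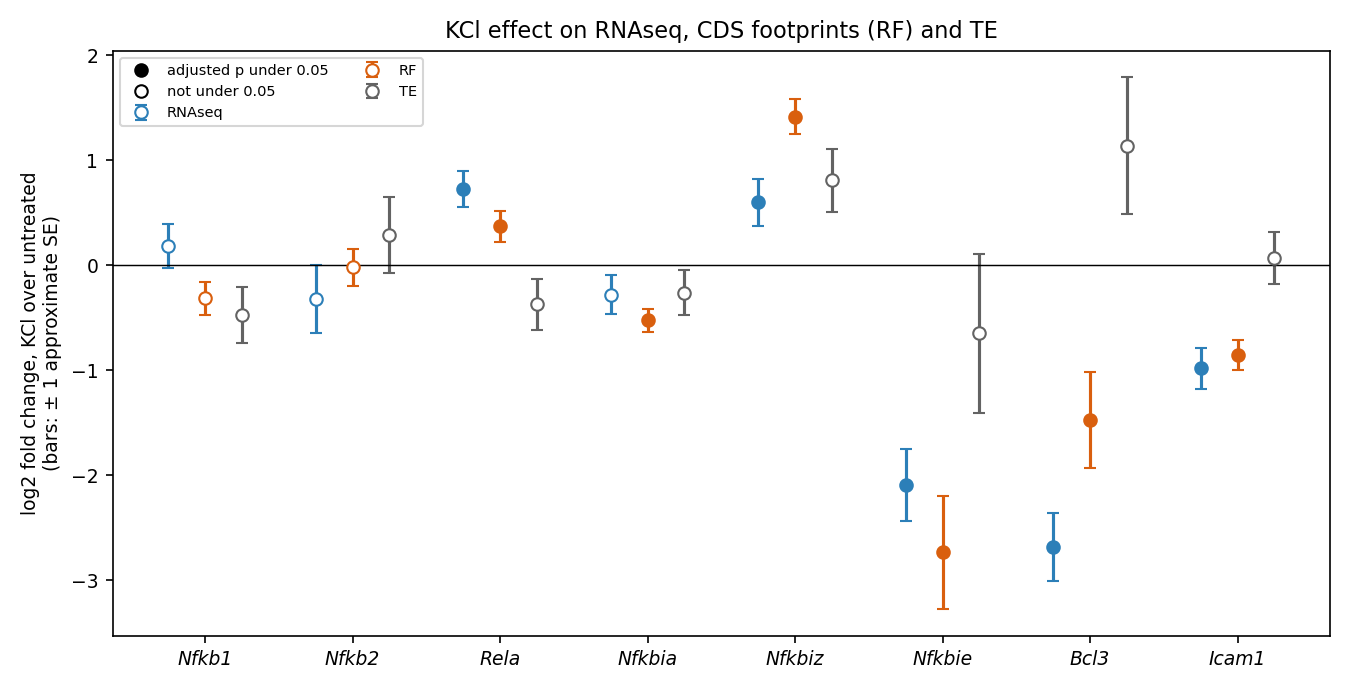
Log2 fold change of KCl over untreated cultures for each NF-kB gene in RNAseq (blue), CDS footprints (RF, orange) and TE (gray). Bars are ± 1 approximate SE, and filled points have an adjusted p under 0.05 in edgeR. RNAseq and RF points of a gene lie on the same side of 0 except for Nfkb1, and no TE point is filled.

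Nfkbiz went the other way. It encodes IkBz, an atypical IkB protein that acts in the nucleus as a cofactor of NF-kB on a subset of its targets. Its footprints were 22.5, 25.2 and 27.9 normalized CPM in untreated cultures and 60.7 and 68.7 in KCl cultures. The KCl mean was 2.57-fold the untreated mean, with a log2 fold change of 1.41 (SE 0.17, adjusted p = 8.27e-12 in edgeR), and this passed under all 10 alternatives run, from 1.24 to 1.49.

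The Nfkbiz transcript had 18.9, 24.4 and 23.8 normalized RNAseq CPM untreated, and 41.7 and 26.1 with KCl. KCl culture 5 was only slightly above the highest untreated culture. A log2 fold change of 0.60 (SE 0.23) had an adjusted p of 0.0442 in edgeR, and the call was lost in 6 of 11 alternatives. Without KCl culture 4 it was 0.23 (adjusted p = 0.727), without untreated culture 1 0.48 (adjusted p = 0.112) and without untreated culture 3 0.64 (adjusted p = 0.0747). TE of Nfkbiz was 1.19, 1.03 and 1.17 untreated and 1.46 and 2.63 with KCl. The KCl values were both higher and differed from each other, and the log2 difference of 0.81 (SE 0.30) did not pass (unadjusted p = 0.00667, adjusted p = 0.144 in edgeR). The other 3 Nfkbiz transcripts share most of its reads, and their log2 fold changes were 0.61 to 0.63 in RNAseq and 1.41 to 1.43 in RF.

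Bcl3 encodes another nuclear IkB protein, which binds p50 and p52 dimers, and had the largest fall in RNAseq of the 8 genes. It had 19.7, 37.0 and 30.1 normalized CPM untreated and 3.59 and 5.28 with KCl. The untreated mean was 6.53-fold the KCl mean, and both KCl values were far below the lowest untreated one. The log2 fold change was -2.68 (SE 0.32, adjusted p = 1.04e-11 in edgeR), and it passed in all 11 alternatives, from -3.20 to -2.44, CDS reads alone included. The opposite-strand gene Gm16175 overlaps Bcl3, and its reads could not be told apart.

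Bcl3 footprints also fell. They were 7.59, 7.67 and 7.86 normalized CPM untreated and 3.61 and 2.25 with KCl, from 57, 49 and 11 footprints untreated and 5 and 6 with KCl. The KCl to untreated ratio of footprints was 0.355, with an exact 95% interval of 0.173 to 0.660 for counting error. In log2 terms the fall was -1.47 (SE 0.45, adjusted p = 0.00829 in edgeR). It did not pass in DESeq2 (adjusted p = 0.0760) or without KCl culture 5, where it was -1.08 (adjusted p = 0.297). TE was 0.385, 0.207 and 0.261 untreated and 1.01 and 0.427 with KCl. Both KCl values were higher, but the log2 difference of 1.14 (SE 0.65) did not pass (adjusted p = 0.459 in edgeR), so that the RNAseq and RF changes were not shown to differ.

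Icam1, an adhesion molecule of the cell surface and a target of NF-kB, fell in both assays. In RNAseq it had 44.1, 84.9 and 84.3 normalized CPM untreated and 33.3 and 38.4 with KCl. Untreated culture 1 was well below the other two and still above both KCl cultures. The log2 fold change was -0.98 (SE 0.20, adjusted p = 5.74e-05 in edgeR). On CDS reads alone, which numbered 19 to 54 per library, it was -0.68 and did not pass (adjusted p = 0.250).

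Icam1 footprints were 95.1, 123 and 111 normalized CPM untreated and 62.9 and 58.6 with KCl. The groups were apart and the untreated mean was 1.80-fold the KCl mean. The log2 fold change of -0.86 (SE 0.14) had an adjusted p of 4.01e-07 in edgeR and passed in all 11 alternatives, from -1.03 to -0.73. TE, at 2.16, 1.45 and 1.31 untreated and 1.89 and 1.52 with KCl, overlapped between groups, with a log2 difference of 0.07 (SE 0.25, adjusted p = 0.957 in edgeR). The opposite-strand gene Gm47079 overlaps Icam1, and its reads could not be told apart.

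Icam1 is made by several cell types, and the cultures were checked for them with marker lists. In bulk libraries fewer cells of a type and less RNA per cell cannot be told apart. The marker calls below stand beside 12.3% of all genes called higher and 10.5% lower in RNAseq. In RF these shares were 15.6% and 13.8%. The 7 neuron markers summed to 470.01 to 700.03 normalized CPM untreated and 621 to 650.03 with KCl in RNAseq, and to 409.7 to 628 against 659 to 749.9 in RF, with 1 and 2 of them called, all higher. The 7 astrocyte markers summed to 8088 to 9313 untreated and 7459 to 7870 with KCl in RNAseq, where 1 was called lower, and to 13588 to 13862 against 15598 to 15929 in RF, where 6 were called higher. For the 8 markers of the oligodendrocyte lineage the sums were 1455 to 1557 and 1438 to 1448 in RNAseq, with 1 called lower, and 1223 to 1377 and 1434 to 1552 in RF, with 3 called higher. Of 12 microglial markers, 10 had a transcript, not Tyrobp and Cd68. Their summed level was 289 to 326 normalized CPM untreated and 300.2 to 328 with KCl in RNAseq, and 450.5 to 500.0 untreated against 583 to 613 in RF. In RF 6 of the 10 were called higher with KCl, namely Csf1r, Itgam, C1qa, C1qc, Trem2 and Ctss, by 0.43 to 0.56 on the log2 scale. Cx3cr1, the fractalkine receptor, was the only one called lower in RF and the only one called in RNAseq, with log2 fold changes of -0.79 and -0.96 (adjusted p = 2.21e-04 and 0.0115 in edgeR). The 8 endothelial markers summed to 36.0 to 37.4 untreated and 37.8 with KCl in RNAseq, and to 62.9 to 75.5 against 52.1 to 59.7 in RF. Their levels differed widely, with Cdh5 at 10.2 to 17.7 and Kdr at 10.4 to 19.3 normalized RNAseq CPM, and Pecam1, Tek and Emcn at or under 1.47 in every culture. Esam was the only one called, higher with KCl in RNAseq on 3, 1 and 2 reads untreated against 19 and 15 (log2 fold change 3.05, adjusted p = 5.61e-04 in edgeR). Of 6 fibroblast and mural markers, 5 had a transcript, and they summed to 440.3 to 522 untreated and 372 to 419 with KCl in RNAseq, and to 899.8 to 1198 against 575 to 696 in RF. Most of the untreated RF sum was Col1a1, at 921, 596 and 873 normalized CPM untreated and 257 and 370 with KCl, which was not called (adjusted p = 0.0576 in edgeR). In KCl culture 4 Dcn was higher than Col1a1 in RF, at 280 normalized CPM. Pdgfrb was called lower in both assays and Lum in RNAseq, whereas Dcn was called higher in RF (log2 fold change 0.32, adjusted p = 0.00741 in edgeR). In TE Aqp4 and Slc1a3 were called higher, by 0.88 and 0.65 on the log2 scale (adjusted p = 1.31e-05 and 0.00501 in edgeR). Col1a1 was called lower in TE, at -1.04 (adjusted p = 5.71e-07), and 2.45% of all genes were called in TE. No marker of the other cell types was called in TE. RF sums of markers thus also take in changes of TE. The part of these cell types in the Nfkbie, Bcl3 and Icam1 values was not tested.

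Among the named transcripts, those of Nfkbie and Rela had the largest shares of footprints before the start codon. Of the Nfkbie footprints on 5′UTR and CDS, 21.5%, 34.4% and 30.8% lay on the 5′UTR in untreated cultures. Pooled over these cultures, 52 footprints on 238 nt of 5′UTR against 130 on the CDS gave a density ratio of 1.84, percentile 93.1 of 9590 genes with a median of 0.393. The Nfkbie 5′UTR holds 1 upstream ATG, as 56.68% of genes hold at least 1. With KCl it had 3 footprints on the 5′UTR and 5 on the CDS, too few to compare. Rela had 11.5%, 10.8% and 13.8% of its footprints on the 5′UTR untreated and 15.6% and 22.1% with KCl. Both KCl shares of Rela were above the untreated ones, and this was not tested. Its pooled density ratio was 0.604, percentile 64.3.

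In the named transcripts of the other 6 genes, 0% to 13.3% of footprints lay on the 5′UTR in any library. Nfkbiz has the most upstream ATGs of the named transcripts, 6 in 573 nt, and the density ratio of that transcript was 0.165, below the median. This does not hold for all its transcripts. ENSMUST00000096026, with 8 upstream ATGs in 825 nt, had 24, 27 and 11 footprints on the 5′UTR untreated and 7 and 23 with KCl. On its CDS it had 156, 147 and 35 untreated and 82 and 163 with KCl. No density ratio was computed for this transcript, and its shares exceed 13.3% in some libraries. Untreated culture 3, the shallowest RF library, had the highest untreated share for Nfkb2, Nfkbia, Nfkbiz, Bcl3 and Icam1. In that culture 8.56% of all RF reads lay on 5′UTRs, beside 6.04% to 7.54% in the others.

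**Figure D4:**
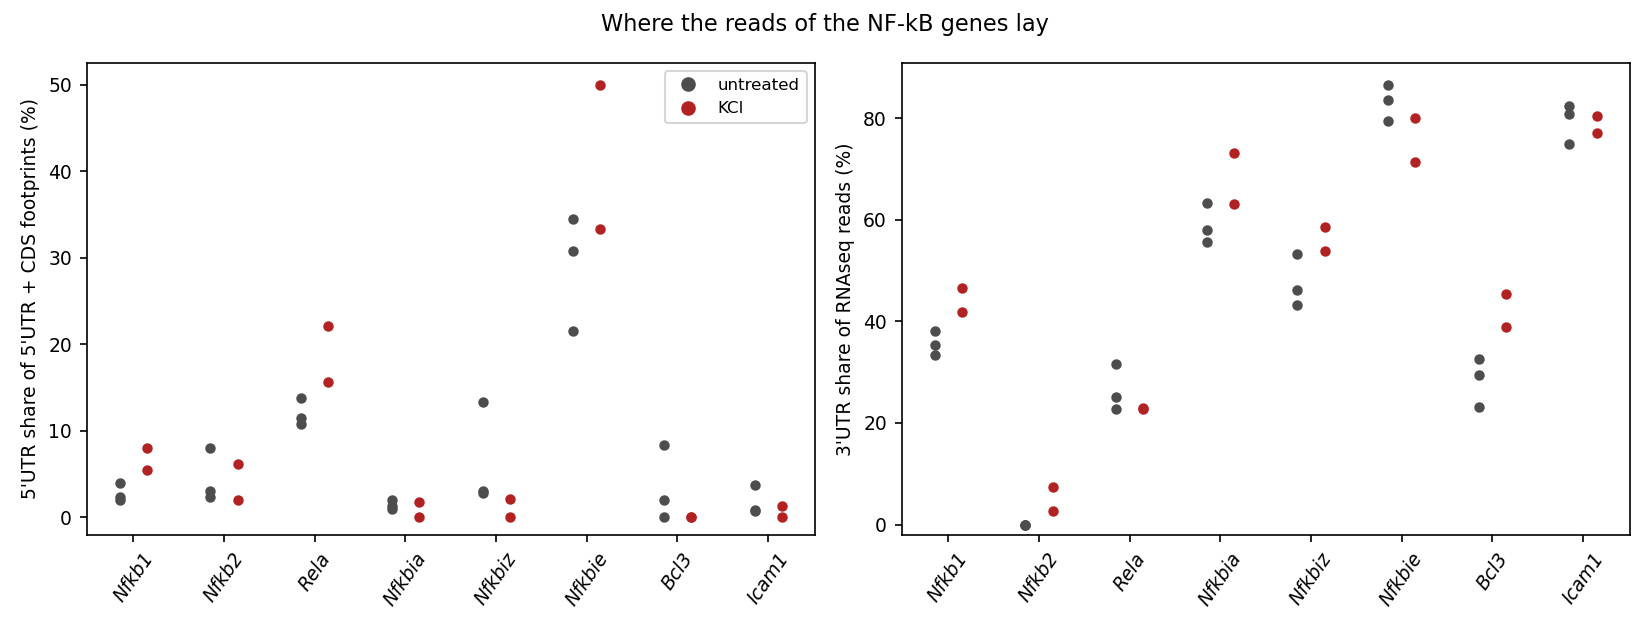
Where the reads of the NF-kB genes lay, in percent. Left, share of footprints on the 5′UTR out of those on 5′UTR and CDS. Right, share of RNAseq reads on the 3′UTR. Gray points are untreated and red points KCl cultures. Nfkbie has the highest shares on the left, where its KCl points rest on 2 and 6 footprints, and on the right Icam1 and Nfkbie have the highest shares in every culture except KCl culture 4, where Nfkbia is above Nfkbie.

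The RNAseq reads of these genes also differed in place. Nfkbie and Icam1 had 71.4% to 86.5% and 74.8% to 82.3% of their RNAseq reads on the 3′UTR. Nfkb2, with an annotated 3′UTR of 128 nt, had 0% to 7.41%. For Nfkb1 the 3′UTR share was 33.3%, 35.4% and 38.0% untreated and 46.6% and 41.9% with KCl, for Nfkbia 63.4%, 55.6% and 58.1% untreated and 73.1% and 63.2% with KCl, and for Bcl3 29.4%, 32.5% and 23.2% untreated and 45.5% and 38.9% with KCl. It was not higher for all genes. Rela had 22.7%, 31.5% and 25.2% untreated and 22.9% and 22.7% with KCl, and Nfkbie 86.5%, 79.5% and 83.6% untreated and 71.4% and 80.0% with KCl. Over all transcripts, 3′UTR reads made up 49.9% to 51.2% of the untreated and 51.8% to 53.3% of the KCl RNAseq libraries.

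Other genes of the pathway were taken from lists of receptors, kinases, regulators and targets that were also drawn up with earlier results known. Of 29 target genes with a kB site in the literature, 21 were tested. In RNAseq 3 rose and 11 fell, beside 12.3% higher and 10.5% lower of all genes tested, and in RF 3 rose and 9 fell, beside 15.6% and 13.8%. Without KCl culture 5 the 12 RF calls became 7. Their median log2 fold change was -0.52 in RNAseq and -0.55 in RF, beside -0.02 in both over all transcripts tested.

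The targets that fell furthest were chemokines and cytokines. Ccl2, which attracts monocytes, had 90.3, 142 and 172 normalized RNAseq CPM untreated and 16.3 and 16.4 with KCl, a log2 fold change of -3.04 (SE 0.21, adjusted p = 9.41e-23 in edgeR). Its neighboring paralog Ccl7 had a log2 fold change of -2.98 in RNAseq (adjusted p = 4.56e-17). Il1b, the interleukin-1 beta gene, had 12, 27 and 18 RNAseq reads untreated and 1 and 5 with KCl (log2 fold change -2.60, adjusted p = 0.00125).

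In the opposite direction, Ptgs2, the inducible cyclooxygenase, had 3.77, 4.52 and 6.65 normalized RNAseq CPM untreated and 35.2 and 33.4 with KCl. Its log2 fold change was 2.78 (SE 0.29, adjusted p = 1.04e-14 in edgeR) in RNAseq and 3.44 in RF (adjusted p = 3.43e-14). Gadd45b and Ier3 were the other targets that rose in RNAseq. The 3 that rose in RF were the same genes. The list of targets therefore held genes that changed in both directions, as the 8 NF-kB genes did.

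**Figure D5:**
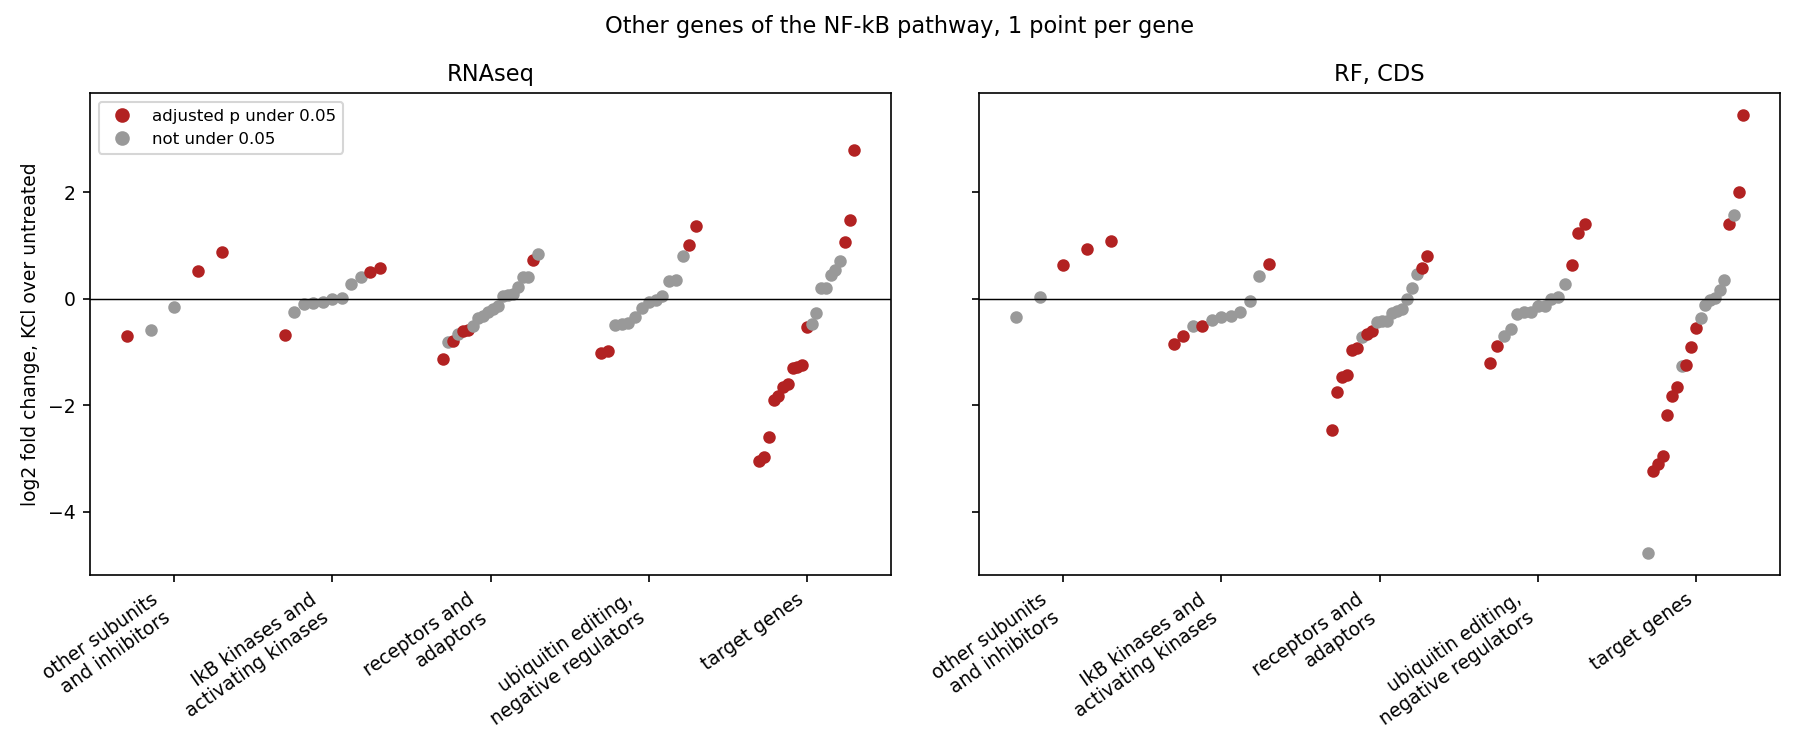
Log2 fold change of KCl over untreated cultures for the other genes of the pathway, 1 point per gene, in RNAseq (left) and CDS footprints (RF, right). Red points have an adjusted p under 0.05 in edgeR. Target genes span the widest range, from -3.04 to 2.78 among those called in RNAseq.

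Of 24 receptors and adaptors upstream of the IkB kinases, 20 were tested. In RNAseq 1 rose and 4 fell, beside 22.8% called over all genes, and in RF 2 rose and 8 fell, beside 29.4%. In TE 1 was called, beside 2.45%. The 5 RNAseq calls became 3 without KCl culture 4, and the 10 RF calls became 4 without KCl culture 5. Il1r1, the interleukin-1 receptor, fell as RNA from 47.0, 44.0 and 35.2 normalized CPM to 19.9 and 18.5 (log2 fold change -1.13, adjusted p = 2.35e-05 in edgeR). The tumor necrosis factor receptor Tnfrsf1a fell by 0.79 on the log2 scale (adjusted p = 8.44e-05) and Tnfrsf12a, the TWEAK receptor, rose by 0.73 (adjusted p = 5.32e-05). Ltbr, a receptor of the alternative branch, was the one called in TE, at -1.48 (SE 0.42, adjusted p = 0.0261), and the list had 0 TE calls in DESeq2, without KCl culture 4 or without KCl culture 5, 2 without untreated culture 1 and 3 without untreated culture 2. Birc3, a ubiquitin ligase that NF-kB induces, had 42, 48 and 14 footprints untreated and 4 and 1 with KCl (log2 fold change in RF -2.46, adjusted p = 4.72e-04).

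The kinase list, 11 of 12 genes tested, gave 3 RNAseq calls, of which 1 was a fall, and 4 RF calls, of which 3 were falls, beside 22.8% and 29.4% called over all genes. It gave 1 TE call, beside 2.45%. The RNAseq calls became 0 without KCl culture 4 and 1 without KCl culture 5, and the RF calls 2 without untreated culture 1 and 1 without KCl culture 5. Ikbkg, the regulatory subunit of the IkB kinase complex, fell by 0.69 on the log2 scale in RNAseq and in RF (adjusted p = 0.0105 and 0.00763 in edgeR). Chuk, a catalytic subunit, rose by 0.57 in RNAseq (adjusted p = 0.0326). Tab2, an adaptor of the kinase TAK1, rose in RNAseq from 287, 214 and 221 normalized CPM to 348 and 333, and fell in RF from 36.8, 43.1 and 47.9 to 20.97 and 24.0. Its TE difference was -1.36 (SE 0.23, adjusted p = 2.40e-06 in edgeR), the lowest adjusted p in TE of these lists.

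Among the other subunits and IkB-like genes, 5 of 9 were tested. In RNAseq 2 rose and 1 fell, and in RF 3 rose, beside 22.8% and 29.4% called over all genes. The 3 RNAseq calls became 0 without KCl culture 4 or KCl culture 5 and 1 without untreated culture 3. Nfkbib, which encodes the inhibitor IkBb, rose by 0.52 on the log2 scale in RNAseq (adjusted p = 0.0447 in edgeR) and by 0.94 in RF (adjusted p = 7.02e-05). The repressor Nkrf rose by 0.87 in RNAseq (adjusted p = 0.00484) and by 1.08 in RF (adjusted p = 1.62e-07). Of ubiquitin editing enzymes and negative regulators, 15 of 17 were tested, with 2 rises and 2 falls in RNAseq and 3 rises and 2 falls in RF, beside the same 22.8% and 29.4%. The 4 RNAseq calls became 2 without KCl culture 4. Sqstm1, the autophagy receptor p62, rose from 557, 526 and 621 normalized RF CPM to 1441 and 1554 (log2 fold change 1.41, adjusted p = 1.98e-31 in edgeR). Tnip1, a partner of Tnfaip3, fell by 0.97 on the log2 scale in RNAseq (adjusted p = 8.44e-04). In TE Rnf11 fell by 1.21 (adjusted p = 0.0249) and Tax1bp1 rose by 0.64 (adjusted p = 0.0247), beside 2.45% of all genes called. These 2 TE calls became 0 in DESeq2, without KCl culture 4 and without KCl culture 5, and 1 without untreated culture 1 or untreated culture 3.

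The genes whose pattern over the 10 libraries was most like that of Rela or Nfkbia were found by the Euclidean distance of log2 normalized CPM, centered within each assay, among 4234 genes. Nearest to Rela were Atxn2l, Kctd10 and Zswim8, at distances of 0.378, 0.425 and 0.436, where the median gene was at 1.21. Nearest to Nfkbia were Crat, Nelfa and Myl9, at 0.224, 0.241 and 0.248, where the median was 1.03.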

How the data were processed

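The authors trimmed reads with Trimmomatic (0.32), removed rRNA with STAR (2.3.1z8), aligned to the Ensembl mm10 transcriptome with Bowtie2 (2.2.2), kept multi-mapped reads, and deposited raw counts per transcript region from bedtools (2.20.1). Regions without reads are not listed, and isoforms share reads. Region letters were assigned from annotated lengths. A region left unnamed entered the RNAseq sums. Of 22534 transcripts, 22172 matched GENCODE M21 (GRCm38), which gave names, lengths and overlaps. Positions around start and stop codons were not removed here.

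Counts were fitted with edgeR 4.0.16 (R 4.3.3; quasi-likelihood, robust, TMM within assay, at least 10 reads over an assay's 5 libraries), with Benjamini-Hochberg adjustment over all transcripts. The SE is the absolute log2 fold change over the square root of F. TE was tested as an assay-by-treatment interaction, blocked by culture, because both libraries of a number come from 1 lysate. The correlation of their deviations was -0.0639, -0.0507 and 0.0719 in untreated cultures and 0.0191 in KCl cultures. Alternatives were DESeq2 1.42.0, library totals, other filters, 1 transcript per gene, CDS reads only, no block and leaving out each culture. Fits were tested on simulated counts. Transcripts named are those with the highest mean RNAseq count, and up to 4 genes per pathway list, by absolute log2 fold change among those called. Gadd45b and Ier3 were named after their values were seen. Members and lists were chosen with earlier results of these data known. RPKM used library totals. Intervals cover counting error only.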

Additional observations from a re-analysis of the deposited data

How the results depend on the processing

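All 8 genes together gave 273 results under alternatives. Of these, 245 kept their direction and side of the threshold, 19 no longer passed, 1 passed anew and 8 changed sign, none of the 8 a called value. The 245 include the TE values of Nfkb2, Nfkbie and Bcl3 in DESeq2, which gave them no adjusted p, so that only their direction was compared. The sign changes were in RF for Nfkb2, at 0.0026, 0.01735 and 0.06337 without untreated culture 1, untreated culture 2 and KCl culture 4, in a range from -0.1332 when any 1 culture was left out. In TE they were for Icam1, at -0.02176, -0.06183 and -0.0757 without untreated culture 2, untreated culture 3 and KCl culture 4, in a range up to 0.2714, and at -0.2112 against CDS reads alone, and for Nfkbia at 0.1189 against CDS reads alone. Of the 5 NF-kB genes called in RNAseq, 2 were called at 10 RPKM, where 3 are tested, and 2 on CDS reads alone. Of the 6 in RF, 2 were called at 10 RPKM. Leaving out a culture gave 4 to 5 genes in RNAseq and 4 to 6 in RF. In DESeq2 the pathway lists had 1 RNAseq call for other subunits, 2 RF calls for kinases and 6 RF calls for receptors, in place of 3, 4 and 10, and 0 TE calls for receptors and 0 for negative regulators, in place of 1 and 2. Leaving out 1 culture gave 0 to 3 RNAseq calls for other subunits, 0 to 3 for kinases, 3 to 5 for receptors, 2 to 5 for negative regulators and 11 to 14 for targets, and in RF 2 to 3, 1 to 4, 4 to 9, 4 to 6 and 7 to 13. At 10 RPKM other subunits, kinases and receptors had 1, 1 and 3 RNAseq calls and 1, 2 and 3 RF calls, and negative regulators 3 RF calls. On CDS reads alone kinases, receptors and negative regulators had 0, 2 and 1 RNAseq calls, and other subunits, receptors and negative regulators 1, 0 and 1 TE calls. Receptors had 2 TE calls with library totals, filterByExpr or 1 transcript per gene. Over all transcripts, the 4237 RNAseq calls became 2410 at 10 RPKM, 2537 with 1 transcript per gene, 2013 on CDS reads alone and 2464 to 4562 without a culture. The 5412 RF calls became 3237 in DESeq2, 2973 at 10 RPKM, 3123 with 1 transcript per gene and 2424 to 5560 without a culture. The 432 TE calls became 169 in DESeq2, 284 with 1 transcript per gene, 250 on CDS reads alone and 51 to 585 without a culture, the fewest without KCl culture 5. Without the replicate block for culture the TE calls were 392, and no NF-kB gene changed its call. Library totals in place of TMM shifted the median log2 fold change to -0.15 in RNAseq and -0.20 in RF and the share of calls that were higher with KCl from 54.68% to 35.98% and from 52.72% to 30.28%. The numbers tested also differed, so these counts are not shares. In RNAseq 19499 transcripts were tested in the main fit, 7258 at 10 RPKM and 11190 with 1 transcript per gene. In RF the numbers were 18799, 7258 and 10690. The causes of these differences were not tested, apart from fewer transcripts or samples in the fit. Values of Nfkbie and Bcl3 in RF are limited by their few footprints in the KCl cultures.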
